A study of Mus musculus with 7 samples.

Results

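A set of 8 cholesterol supply genes was examined for estrogen receptor β (ERβ) binding in mouse ovary, namely 3 of sterol synthesis (Hmgcs1, Idi1 and Sqle), 2 of its regulation (Insig1 and Srebf2), the uptake receptor gene Scarb1, the storage gene Soat1 and the efflux gene Abca1. They are 8 of the 21755 protein-coding genes on the autosomes and chromosome X. The locus of each gene was its GENCODE gene body (release M21, GRCm38/mm10) plus 50 kb on each side, 1.15 Mb in all. The genes are described in the order of their roles.

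The data were 3 ERβ ChIP-seq libraries and 2 inputs, which are sheared chromatin sequenced without the antibody step. All came from whole ovaries of female C57BL/6J mice that express ERβ endogenously, and the labels name no treatment. Each ChIP replicate was a pool of 14 ovaries from 7 mice aged 4 to 16 weeks, not taken at a set stage of the estrous cycle, and the antibody was PPZ0506. The 2 ERβ ChIP samples from ovaries with ERβ deleted were not analysed here, so signal that the antibody would give without ERβ was not tested. The tracks hold DNA signal and no RNA, so the tissue label could not be checked against marker genes. In whole ovary, fewer bound cells and weaker binding per cell cannot be told apart.

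Steroid-producing cells of the ovary use cholesterol as the substrate of progesterone, androgen and estrogen synthesis. They make it from acetyl-CoA through the mevalonate pathway, take it up from lipoproteins, store it as cholesteryl ester and export the excess. When sterols are low, SREBP-2 is released from the endoplasmic reticulum and activates the synthesis genes, whereas INSIG proteins hold it back when sterols are plentiful. ERβ is a nuclear receptor expressed mainly in granulosa cells, and it binds DNA at estrogen response elements (EREs), an inverted repeat of GGTCA with a spacer of 3 bases.

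A site was a place where the mean signal over 200 bp was more than 4 times the mean of the 2 inputs in at least 2 of the 3 ChIP libraries. Where the input was below its genome mean, that mean was used, and called windows with centres within 200 bp were counted as 1 site. By this rule, 4869 sites were called genome-wide, and 0.0458% of 200-bp windows on a fixed grid were called. The 8 loci held 8 sites, which lay at 3 genes, Scarb1 with 3, Abca1 with 3 and Soat1 with 2. At Hmgcs1, Idi1, Sqle, Insig1 and Srebf2, 0 sites were called. The share of genes with a site was 37.5% (3 of 8), beside 27.5% of all protein-coding genes. With so few genes this difference was not tested. The loci held 6.96 sites per Mb, against 1.90 per Mb over the genome. The genome value takes in sequence far from genes, so the comparison is not one of like loci. At least 3 sites, as at Scarb1 and Abca1, were found at 3.04% of protein-coding genes. Each input was also called against the other at over 4-fold, here in that 1 library and not in 2 of 3. The 8 loci held 0 such sites, and the genome held 69 for Input replicate 1 and 245 for Input replicate 2. With so few in the genome, the 0 says little about these loci.

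The best ERE match within each site is shown first, because ERβ binds this element and its quality differed between the sites. Each line gives the GRCm38 reference sequence of the forward strand, 5′ to 3′, with the 13 bases of the match in capitals and 8 flanking bases in lower case.
Scarb1 site 1: ccacatgaGGACTCGGTGACCctgactgc
Scarb1 site 2: ccctccagGAACACACTCACCtcccacct
Scarb1 site 3: ccccggcgGGTCACTATGCCCagccctca
Soat1 site 1: tgcgggcgGGTCAGCGCGACCcagctccg
Soat1 site 2: agtgttgaGGGCAGCCTGACCcagggctt
Abca1 site 1: ttatctagAGTCAGCGTGACCcttggaac
Abca1 site 2: agaagtgtGGGAGGTTTGACCcagactgc
Abca1 site 3: gcaactatGGCTCTACTGACCttgctaga

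The consensus searched was GGTCANNNTGACC, which reads the same on both strands, and mismatches were counted over its 10 fixed bases. Scarb1 site 3, both Soat1 sites and Abca1 site 1 carried a match with 1 mismatch, and Scarb1 site 1 carried one with 2. Scarb1 site 2 and Abca1 sites 2 and 3 had no match with fewer than 3 mismatches. An ERE with at most 2 mismatches was thus present in 5 of 8 sites (62.5%), beside 67.9% of all sites and 6.66% of 200-bp windows of the genome. With at most 1 mismatch it was present in 4 of 8, beside 33.0% of all sites and 0.499% of windows. All best matches lay within 51 bp of the centre of their site. Where matches tied in mismatches the one nearest the centre was taken, so this closeness follows in part from the choice. With 3 mismatches allowed, all 8 sites had a match, but so did 41.9% of genome windows.

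Exact matches to other motifs were sought on either strand. No mismatch was allowed, unlike for the ERE, so the shares below cannot be compared with those of the ERE or of looser searches. The GATA motif AGATAA was found in Scarb1 site 1 and Abca1 sites 1 and 2 (3 of 8 sites, beside 972 of 4869 sites and 13.3% of genome windows). The FOXO motif TGTTTAC was found in Soat1 site 2 alone, against 4.76% of all sites and 3.01% of windows. The NR5A motif TCAAGGTCA, which ends in the letters of an ERE arm, was found in 0 of 8 sites (3.49% of all sites, 0.428% of windows). The AP-1 motif TGANTCA was also found in 0 of 8 (8.95% of all sites, 5.95% of windows).

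Uptake was the first step examined. Scarb1 encodes the scavenger receptor SR-B1, which takes up cholesteryl ester from high-density lipoprotein and is a major source of cholesterol for steroid-producing cells of rodents. The gene lies on the reverse strand at chr5:125277087-125341094. Its site 1 (chr5:125317311-125317510) had the highest mean fold of the 8 sites and lay in intron 1 of 12, 23.7 kb downstream of the gene start. The signal there was 12.4, 15.8 and 13.3 in ChIP replicates 1, 2 and 3, and 0.899 and 1.13 in Input replicates 1 and 2. The fold over the mean input was 12.2, 15.5 and 13.1, or 13.6 ± 1.71 (SD, n = 3), and 11.5% of all sites in the genome had a mean fold at least as high. All ChIP libraries were far above both inputs, and they differed little from each other.

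Site 2 of Scarb1 (chr5:125325971-125326170) lay in the same intron, 15.0 kb from the gene start. The 3 ChIP replicates had a signal of 6.46, 7.93 and 4.15 and the inputs one of 1.02 and 0.970, giving folds of 6.48, 7.95 and 4.16 (6.20 ± 1.91, SD, n = 3). Replicate 3 was the lowest here and only just above the threshold. Site 3 (chr5:125390151-125390350) was 49.2 kb upstream of Scarb1, near the edge of the locus. It fell in the single exon of the gene model Gm10382. Its signal was 4.99, 4.82 and 5.42 in ChIP and 0.683 and 0.745 in the inputs, with folds of 6.99, 6.75 and 7.59 (7.11 ± 0.436, SD, n = 3). This site varied least between replicates. Its centre lay at -0.048 kb from the nearest protein-coding start, which was that of another gene and not of Scarb1.

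Storage was represented by Soat1, the acyltransferase that esterifies cholesterol for lipid droplets, located on the reverse strand at chr1:156424525-156474331. Site 1 of Soat1 (chr1:156420661-156420860) lay 3.77 kb beyond the end of the gene. It fell in intron 1 of 24 of another protein-coding gene, 0.126 kb from that gene's start and 53.6 kb from the Soat1 start. ChIP signal was 8.04, 9.22 and 17.8, and input signal was 0.841 and 1.10. The folds were 8.29, 9.50 and 18.4 (12.0 ± 5.50, SD, n = 3), so that replicate 3 stood apart and the spread was the widest of the 8 sites. Site 2 (chr1:156520251-156520450) was 46.0 kb upstream of Soat1, outside protein-coding transcripts, and the gene model Gm10031 had the nearest coding start. Its signal was 2.62, 3.69 and 3.44 in ChIP and 0.529 and 0.480 in the inputs, with a mean fold of 6.45 ± 1.10 (SD, n = 3). Neither site was inside Soat1.

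Efflux was represented by Abca1, the transporter that moves cholesterol out of cells onto apolipoproteins. The gene lies on the reverse strand at chr4:53030787-53159895. Site 2 of Abca1 (chr4:53111901-53112100) lay in intron 5 of 49, 47.9 kb downstream of the gene start. Its signal was 6.72, 7.86 and 9.84 in ChIP but 1.15 and 0.440 in Input replicates 1 and 2. The fold over the mean input was 8.46, 9.89 and 12.4 (10.2 ± 1.98, SD, n = 3), and it was the site whose value rested most on the choice of input. With Input replicate 1 left out, the mean fold was 18.5, and with Input replicate 2 left out it was 7.09, both over the threshold.

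Site 1 of Abca1 (chr4:53023571-53023770) lay 7.12 kb beyond the end of the gene, outside protein-coding transcripts, with the nearest coding start that of Nipsnap3b. The signal was 3.90, 4.63 and 6.61 in ChIP and 0.749 and 0.690 in the inputs, giving 7.01 ± 1.94-fold (SD, n = 3). Site 3 (chr4:53162231-53162430), 2.44 kb upstream of the gene start, was the weakest of the 8. Its signal was 0.730, 1.53 and 1.51 in ChIP and 0.362 and 0.334 in the inputs. Its folds were 1.98, 4.15 and 4.09, over the threshold by a small margin in replicates 2 and 3 and below it in replicate 1. In the genome, 99.3% of all sites had a mean fold at least as high.

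**Figure D1:**
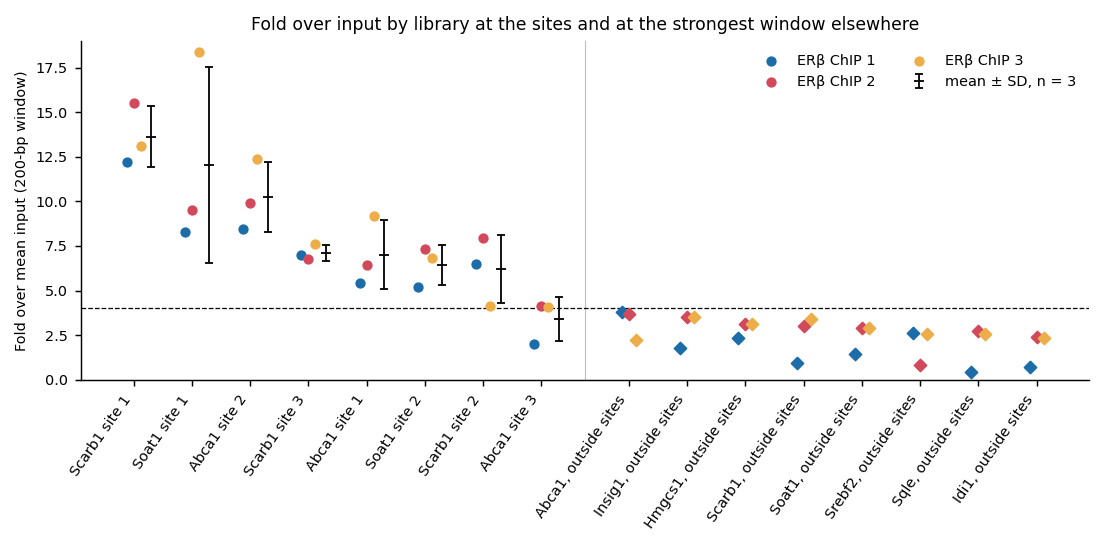
Fold over the mean input in a 200-bp window (y axis) for each ERβ ChIP replicate (points), with mean ± SD (n = 3) at the 8 sites on the left, and at the strongest window outside the sites of each locus on the right (diamonds). The dashed line marks 4-fold. Scarb1 site 1 has the highest mean (13.6), Soat1 site 1 the widest spread, and Abca1 site 3 lies at the threshold.

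Just inside the threshold was thus Abca1 site 3, whose second-highest fold was 4.09, and just outside it was a window 56.3 kb downstream of the Abca1 start, with folds of 3.80, 3.69 and 2.24. ChIP signal was above both inputs in all 3 replicates at 8 of 8 sites, and 7 of 8 were over 4-fold in all 3 replicates, beside 65.8% of all sites. These excesses chose the sites and are given without a test. Scarb1 site 1, Soat1 site 1 and Abca1 site 2 were the 3 sites that remained at an 8-fold threshold, 1 at each gene, where 11.5% of all protein-coding genes had a site. ChIP replicate 1 had the lowest fold of the 3 at 6 of 8 sites. Only 3 of the 8 sites lay inside the gene itself, and at 4 of 8 the gene in question had the nearest protein-coding start.

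**Figure D2:**
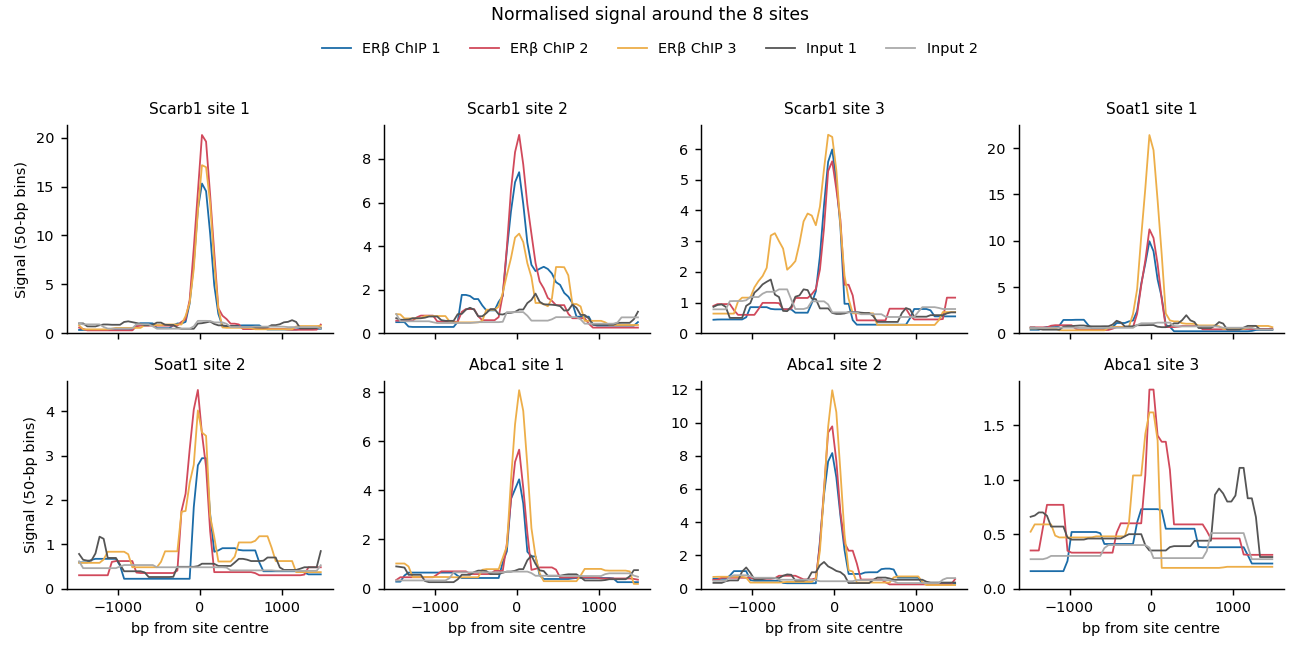
Normalised signal (y axis, 50-bp bins, each panel with its own scale) against distance from the site centre (x axis, bp) at the 8 sites, with 1 line for each of the 3 ERβ ChIP and 2 input libraries. In 7 panels the ChIP lines form a peak at the centre while the inputs stay below 2. At Scarb1 sites 2 and 3 the peak has shoulders in some ChIP replicates. Abca1 site 3 shows a low peak in ChIP replicates 2 and 3 alone.

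Sites called in 2 replicates were next described in the replicate left out of that call. Sites of the 8 loci called in both other replicates were over 4-fold in ChIP replicate 1 at 7 of 8 (median 6.71), in replicate 2 at 7 of 7 (median 7.90) and in replicate 3 at 7 of 7 (median 9.18). Over the genome the shares were 74.4%, 93.4% and 87.6%. The single exception was Abca1 site 3 in replicate 1. Both inputs were used in the calls as well as in these folds. The 8 genes were chosen with earlier results of these data known, so these shares are a description and no independent support.

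The track names divided the libraries into ChIP replicate 1 with Input replicate 1 and ChIP replicates 2 and 3 with Input replicate 2. What this naming stands for is not stated. Within the first set, ChIP over its own input was over 4-fold at 7 of 8 sites, and within the second it was so for both ChIP replicates at 8 of 8. The largest change was at Abca1 site 2, with 5.85 in the first set and 17.9 and 22.4 in the second.

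The 5 genes without a site were those of synthesis and of its regulation. Hmgcs1 encodes the cytosolic HMG-CoA synthase, which feeds HMG-CoA into the mevalonate pathway. Its strongest window, ranked by the second-highest fold of the 3 replicates, was 27.6 kb downstream of the gene start, with ChIP signal of 1.62, 2.13 and 2.12 and input signal of 0.650 and 0.713. The folds were 2.37, 3.12 and 3.11, above input in all 3 replicates but under the threshold.

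Sqle encodes squalene epoxidase, which acts early in the branch that leads to sterols. Its strongest window lay upstream, at -33.1 kb from the gene start, with folds of 0.462, 2.73 and 2.55. Idi1 encodes isopentenyl-diphosphate isomerase, which interconverts the isoprene units of the pathway. Its strongest window was at -14.3 kb from the start, with folds of 0.740, 2.40 and 2.34. At both genes ChIP replicate 1 was below the mean of the inputs.

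Insig1 encodes an endoplasmic reticulum protein that retains the SREBP escort protein SCAP. Its strongest window, 52.0 kb downstream of the start, came nearest to a site among the 5 genes, with folds of 1.80, 3.49 and 3.52. With Input replicate 1 left out, or with each ChIP library set over the input of its own track-name set, 1 site was called at Insig1, and the number of genes with a site was then 4 of 8, beside 30.4% and 29.4% of all protein-coding genes. Srebf2 encodes SREBP-2, the transcription factor that drives the synthesis genes. Its strongest window lay at -24.9 kb from the start, with folds of 2.63, 0.808 and 2.57. There the mean input (signal 0.210 and 0.310) was under its genome mean, which took its place, and ChIP replicate 2 had a signal of 0.298. At a 3-fold threshold the 8 loci held 13 sites, with 1 each at Hmgcs1 and Insig1, and still 0 at Sqle, Idi1 and Srebf2, while 37.5% of all protein-coding genes had a site.

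**Figure D3:**
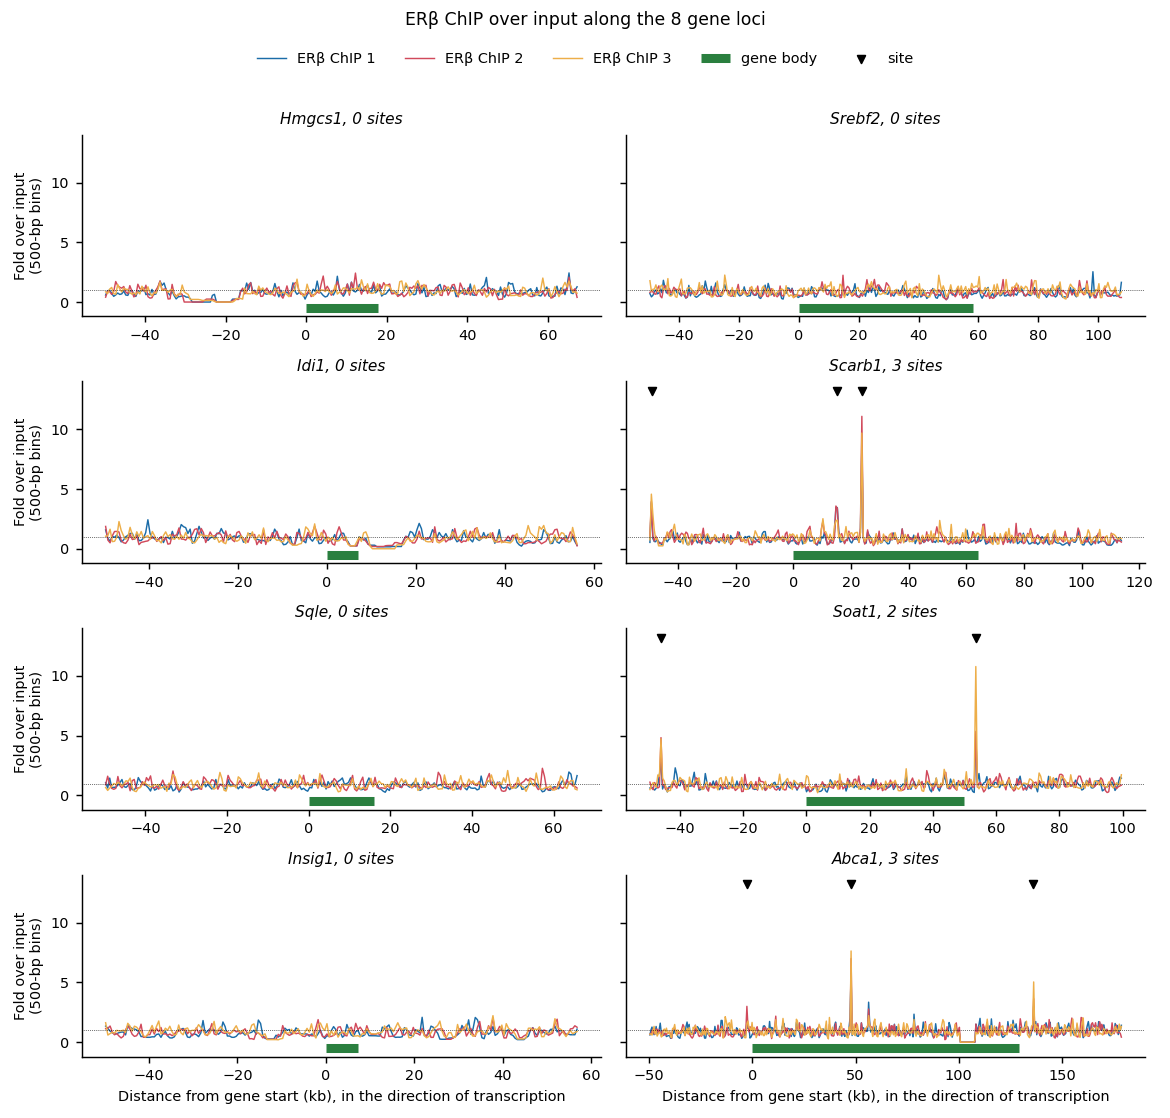
Fold over input in 500-bp bins (y axis) along each of the 8 loci against distance from the gene start in kb (x axis, in the direction of transcription), with 1 line per ERβ ChIP replicate, the gene body in green and sites as triangles. In Hmgcs1, Idi1, Sqle, Insig1 and Srebf2, no bin exceeds 2.54-fold in any replicate, and Scarb1, Soat1 and Abca1 show isolated peaks at their sites.

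ChIP and input were then compared with limma on log2(signal + 0.5), with Benjamini-Hochberg adjustment over all features tested. This test uses the same libraries as the site calls, so for the sites it is a description on another scale and no independent support. Differences on this scale understate changes where signal is low. Of 1119 windows of 1 kb in the 8 loci, 7 were higher in ChIP at an adjusted p under 0.05 (0.626%), beside 0.0957% of 2430674 windows in the genome. At the same threshold 0 were lower, beside 0.00267%. At an unadjusted p under 0.05, 14 of the 1119 were higher, a smaller share than the 1.90% of the genome. At the same level 87 of the 1119 were lower, a larger share than the 3.33% of the genome. The median log2 difference was -0.08 in the loci and -0.01 over all windows.

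The 7 windows held sites of Scarb1 (3 windows), Soat1 (2) and Abca1 (2 adjacent windows at its site 2). The window of Scarb1 site 1 had a mean signal of 3.98, 5.17 and 4.43 in ChIP and 0.762 and 0.803 in the inputs. The log2 difference was 1.96 ± 0.23 (SE, limma adjusted p = 1.71e-06), and it was called under all 11 alternatives tried. For the window of Soat1 site 1 the difference was 1.57 ± 0.24 (SE, limma adjusted p = 0.000208), and it was called under 10 of 11. The window of Abca1 site 1 missed the threshold, with 0.88 ± 0.20 (SE, limma adjusted p = 0.0573), as did that of Abca1 site 3 with 0.45 ± 0.16 (SE, limma adjusted p = 0.838). The other 5 windows were each lost in some fit with a single library left out. Of the 7 windows, 3 were called without ChIP replicate 2, 3 without Input replicate 1 and 2 without Input replicate 2. The last 2 were those of Scarb1 site 1 and Soat1 site 1. Windows called higher over the genome fell as well, from 2326 to 1261, 1365 and 1009 in these fits. Without the filter on low signal, the window of Scarb1 site 1 alone was called of the 7, and 521 were called higher over the genome. With the track-name set as a term, all 7 were called.

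At promoters (1 kb upstream to 100 bp downstream of the most upstream start), ChIP signal was lower than input on average at 7 of the 8 genes and higher at Abca1, and those of Idi1 and Scarb1 turned higher when each library was centred on its median. With limma, 0 of 8 were higher and 0 were lower at an adjusted p under 0.05, beside 0.076% and 0.0237% of 21064 promoters. At an unadjusted p under 0.05, 0 were higher and 2 lower, where all promoters gave 1.37% and 11%. The median log2 difference over all promoters was -0.13 and that over the 8 was -0.25. The promoter of Hmgcs1 had a signal of 0.339, 0.609 and 0.572 in ChIP and 1.02 and 0.841 in the inputs, a log2 difference of -0.51 ± 0.20 (SE, limma adjusted p = 0.285). That of Srebf2 had 0.442, 0.562 and 0.684 in ChIP and 1.08 and 0.825 in the inputs, a difference of -0.45 ± 0.21 (SE, limma adjusted p = 0.355). Centring each library on its median moved the median of all promoters to 0.03 and the calls over all promoters from 16 higher and 5 lower to 150 and 1, and these differences became -0.35 at Hmgcs1 and -0.29 at Srebf2.

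All ChIP libraries were below both inputs at 3 of the 8 promoters, those of Hmgcs1, Srebf2 and Sqle, as they were at 26.6% of all promoters. They were above both inputs at 0 of 8, beside 5.01%. At Sqle the signal was 0.417, 0.981 and 0.994 in ChIP and 1.03 and 1.05 in the inputs. At Insig1, ChIP replicate 3 (1.13) was above both inputs, while replicates 1 and 2 (0.391 and 0.456) were below them. At Abca1 the signal was 0.299, 0.698 and 0.756 in ChIP and 0.598 and 0.453 in the inputs, a log2 difference of 0.055 ± 0.17 (SE, limma adjusted p = 0.901). The promoters of Abca1, Scarb1, Soat1 and Idi1 overlapped between ChIP and input. Without ChIP replicate 3, the promoters of Hmgcs1, Insig1 and Srebf2 were called lower in ChIP, as were 2858 of all promoters, so the 0 rested on that library. ChIP replicate 1 had the lowest ChIP signal at 8 of 8 promoters.

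**Figure D4:**
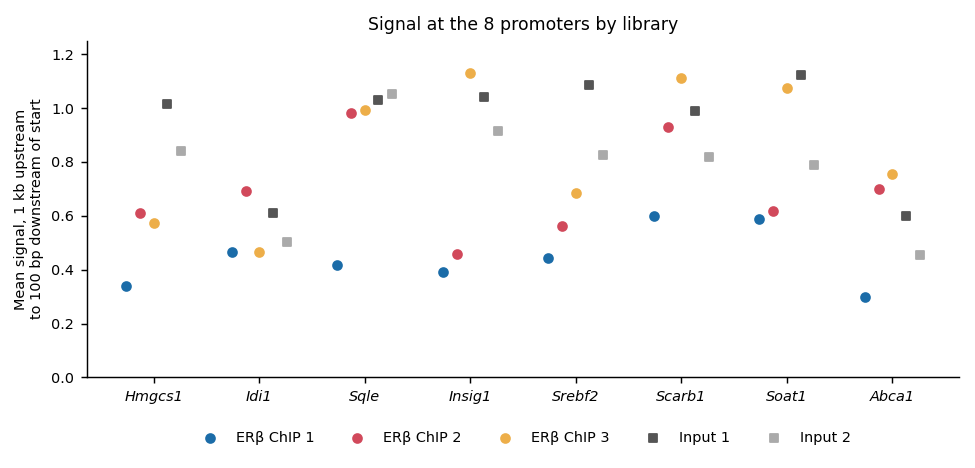
Mean signal from 1 kb upstream to 100 bp downstream of the start (y axis) at the 8 promoters, with circles for the 3 ERβ ChIP libraries and squares for the 2 inputs. At Hmgcs1, Srebf2 and Sqle all circles lie below both squares, and at no promoter do all circles lie above them.

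Signal was also averaged over whole loci. The differences for the 8 loci ran from -0.12 at Srebf2 to -0.0015 at Idi1 on the log2 scale, beside a median of -0.05 over 21243 loci, and with centring those of Abca1, Hmgcs1 and Idi1 turned positive. With limma, 0 of 8 were higher and 0 lower at an adjusted p under 0.05, as in the genome (0% in each direction). At an unadjusted p under 0.05, 0 were higher and 2 lower (Sqle and Srebf2), beside 6.93% and 22.7% of all loci. All ChIP libraries were below both inputs at 4 of 8 loci (Hmgcs1, Sqle, Insig1 and Srebf2), beside 48.6% of all, and above both at 0 of 8, beside 11.6%. Without ChIP replicate 3, the loci of Insig1, Sqle and Srebf2 were called lower, as were 9740 of all loci. At Scarb1, the locus mean was 0.446, 0.515 and 0.564 in ChIP and 0.571 and 0.549 in the inputs, so its 3 sites stood on a locus whose mean did not exceed input.

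The promoter sequences of RefSeq on GRCm38 (250 bases upstream to 50 downstream of the start) covered 6 of the 8 genes, without Sqle and Scarb1. An ERE with at most 2 mismatches was found at Srebf2, 1 of 6, beside 11.1% of 26794 promoters. The sterol regulatory element TCACNCCAC, the sequence through which SREBPs act, was found on either strand at Hmgcs1 and at no other of the 6, beside 1.23% of promoters. NR5A, GATA, AP-1 and FOXO motifs were found in 0 of 6.

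The other genes of the pathway were 46 genes listed by role. A site was present at 17 of 46 (37.0%), again beside 27.5% of all protein-coding genes. By role these were 8 of 17 synthesis genes, 2 of 9 regulators, 4 of 8 genes of uptake and lysosomal release, 1 of 4 of storage, 2 of 4 of efflux and carriers, and 0 of 4 of delivery to mitochondria. At Star, which moves cholesterol into mitochondria, the window of highest mean fold had 3.57 ± 0.592 (SD, n = 3), and it was not called. A site over 4-fold in all 3 replicates was found at 8 of the 46 and at 3 of the 8 genes, beside 20.1% of all protein-coding genes. Among the 17 synthesis genes, 2 had such a site.

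Sites were thus present at other genes of synthesis. Fdft1, which encodes squalene synthase, had 1 site in its intron 1, with folds of 40.4, 46.0 and 55.4 (47.3 ± 7.58, SD, n = 3). Only 0.0689% of protein-coding genes had a strongest window as high. Sc5d, a desaturase of late sterol synthesis, had 1 site at -8.81 kb from its start with 15.0 ± 3.36-fold (SD, n = 3). By contrast, the windows of highest mean fold at Hmgcs1, Sqle and Idi1, which for Sqle and Idi1 lay elsewhere (at -12.4 and -2.74 kb from the start) than the windows ranked above by their second-highest replicate, had mean folds of 2.89 ± 0.438, 2.21 ± 0.791 and 2.05 ± 1.66 (SD, n = 3), near the median of 2.35 over all protein-coding genes.

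Of the regulators, Srebf1, the related SREBP gene, had 2 sites with a highest mean fold of 17.7 ± 4.08, and Scap, which escorts SREBPs, had 5 sites with a highest of 10.6 ± 2.12 (SD, n = 3). The strongest Srebf1 site lay nearest the start of Rai1, 45.7 kb from that of Srebf1. The strongest Scap site lay beyond the end of Scap, in exon 11 of 25 of Ptpn23. At all 5 Scap sites the nearest protein-coding start was that of Ptpn23. Insig1 and Srebf2 had 2.94 ± 1.00 and 2.04 ± 1.09 at their windows of highest mean fold. Among the lipoprotein receptors, Lrp8 had a highest mean fold of 13.3 ± 2.68 and Lrp1 of 6.98 ± 3.31, beside 13.6 ± 1.71 at Scarb1. Lrp8 and Scarb1 differed by less than the spread between replicates. The Lrp1 value came from a site 45.7 kb upstream of Lrp1, in intron 1 of Nab2, whose start was the nearest. The site inside Lrp1 had 4.40 ± 2.03 (SD, n = 3). In efflux, the carrier gene Apoa1 reached 20.9 ± 4.32 at a site nearest the start of Apoa4. Abca7, a transporter related to Abca1, reached 10.9 ± 1.54, beside 10.2 ± 1.98 at Abca1. The Abca7 value came from a site in intron 14 of Sbno2, 49.4 kb beyond the end of Abca7. The site inside Abca7 had 5.95 ± 1.65 (SD, n = 3).

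**Figure D5:**
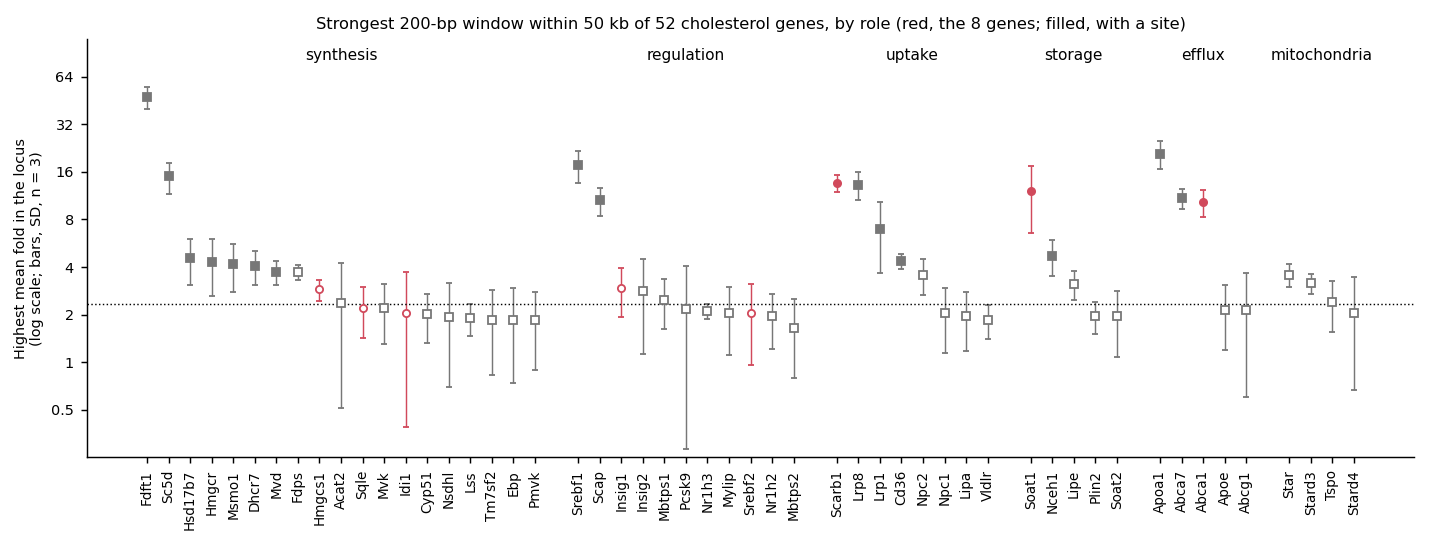
Highest mean fold over input of any 200-bp window within the gene body plus 50 kb (y axis, log scale; bars, SD, n = 3) for 52 cholesterol genes grouped by role, with the 8 genes in red and filled symbols for genes with a site. The dotted line is the median over all protein-coding genes (2.35). Scarb1, Soat1 and Abca1 lie between 10.2 and 13.6, and the other 5 genes lie between 2.04 and 2.94.

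The order of the 8 genes by the window of highest mean fold was Scarb1, Soat1, Abca1, Insig1, Hmgcs1, Sqle, Idi1 and Srebf2. Neighbours among the first 3 differed by less than the larger of their SDs, as did neighbours among the last 5, and the gap lay between Abca1 (10.2 ± 1.98) and Insig1 (2.94 ± 1.00). A window of at least that mean fold was found at 4.26% of protein-coding genes for Scarb1, 5.47% for Soat1 and 7.51% for Abca1, but at 36.3% for Insig1 and 71.1% for Srebf2. Outside the pathway list, the genes whose strongest window was nearest to that of Scarb1 in log2 fold over the 3 ChIP libraries were Col19a1 (distance 0.128) and Axl and Cyp2s1 (0.132 each, from the same window), with mean folds of 13.1 and 13.6.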

How the data were processed

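ChIP-seq tracks of 3 ERβ ChIP and 2 input libraries of mouse ovary were used. According to the methods and the submitters' processing notes, the authors aligned reads with STAR to GRCm38 (mm10), kept uniquely mapped reads and used HOMER (versions not given in the sources used here). Each deposited file is a coverage track of 1 library whose signal the authors normalised to a common total (928 to 948 M signal times bp). The values are means over segments of variable length (median 269 to 519 bp), rounded, so single reads cannot be recovered, library depth cannot be read from them, and counting intervals were not possible. Such averaging lowers narrow peaks, and Input replicate 1 was stored at finer resolution than the others. Because the tracks are not counts, limma 3.58.1 (R 4.3.3) on log2(signal + 0.5) was used in place of the count test of the study.

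Signal was averaged in 200-bp windows at 10-bp steps with Python 3.11.15 and NumPy 2.4.6 on the autosomes and chromosome X (99.7% to 99.8% of signal). Fold was ChIP over the mean of both inputs, the input being at least its genome mean. Windows, promoters and loci with a mean signal under 0.1 were not tested. Groups and replicate numbers came from the sample titles. Each ChIP replicate was a separate pool of mice, and what separates the inputs is not stated. Site calling and limma were tested on simulated data. The members and gene lists were chosen with earlier results of these data known. The text names all 8 genes and their sites, the other pathway genes with the highest site folds (at most 10), and 3 genes most like Scarb1; Star and genes nearest a site are named in addition. Some genes that this rule would name are not reported here. Star was chosen after its values were seen. Alternatives covered the fold threshold, window, flank, input floor, pseudocount, filter, centring, replicate block and each library left out; the track-name set was added after seeing the data. The 2 knockout ChIP samples were not analysed here.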

Additional observations from a re-analysis of the deposited data

How the results depend on the processing

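The site rule set the counts most. The 8 loci held 3 sites at an 8-fold threshold and 13 at 3-fold. Genes with a site rose from 3 to 5 of 8 at 3-fold, and also to 5 with a flank of 100 kb, where 37.5% and 40.4% of all protein-coding genes had one in place of 27.5%. All protein-coding genes with a site fell from 5979 to 2492 at 8-fold and to 2942 with a flank of 10 kb. With 3 mismatches allowed, 8 sites held an ERE, by construction of a looser match. With single libraries left out, the loci held 7 to 10 sites at 3 to 4 genes, with 4596 to 6610 protein-coding genes having a site. Of 64 recomputed site folds, 55 stayed within 1 SD of their value, and windows of 400 bp gave lower folds at 5 sites by more than that.

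The limma counts were less stable. Windows of 1 kb higher in ChIP numbered 7 and ranged from 2 to 8 with a library left out, beside 0.0415% to 0.105% of all windows. They fell to 1 without the filter on low signal, beside 0.0198%. Lower windows ranged from 0 to 1 with a library left out, beside 0.000411% to 0.0281%. With the replicate number as a block, 8 windows were higher and 3 lower (beside 0.141% and 0.132% of all windows). In that fit 1 promoter (Insig1) and 2 loci (Insig1 and Srebf2) were lower (beside 5.15% of promoters and 33.3% of loci). The signs of the promoter differences at Abca1 (-0.065) and Idi1 (0.024) reversed. No input carried number 3, so the block took up ChIP replicate 3. The log2 differences therefore equalled those with that library left out, and the block was no separate check. Numbers 1 and 2 were shared by ChIP and input. Deviations of same-numbered libraries from their group means correlated at 0.04 for number 1 and -0.01 for number 2, so the numbers gave no evidence of pairing. With 2 inputs the deviations mirror each other, so each correlation with the other input was the same with the sign reversed. With a library left out, 0 to 3 promoters and 0 to 3 loci were lower in ChIP, and 0 were higher. With the track-name set as a term, 1 locus (Srebf2) was lower, beside 13% of all loci. Apart from the block, the cause of these changes was not tested.

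No promoter or locus difference that reversed was called. Centring each library on its median turned the promoters of Idi1 (0.13) and Scarb1 (0.12) and the loci of Abca1 (0.027), Hmgcs1 (0.016) and Idi1 (0.061) positive. With a library left out, the log2 difference ranged from -0.065 to 0.26 at the Abca1 promoter, from -0.13 to 0.045 at that of Idi1, from -0.16 to 0.12 at that of Scarb1 and from -0.011 to 0.0082 at the Idi1 locus.

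Read depth is unknown from the tracks, and 3 against 2 libraries set the precision.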
